A study of Mus musculus with 6 samples.

Results

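The genes described here make up the NRF2 pathway with the glutathione, thioredoxin, NADPH and antioxidant enzyme systems around it. They are 42 genes named by symbol, each measured by the probe set of that symbol alone with the highest mean over all 6 arrays. Of these, 40 were measured among 19938 genes in all. Prdx6 and G6pdx, to which the platform annotation assigns no probe set alone, were not analysed here. The symbols were chosen by pathway with earlier KO minus WT results of these arrays known, the rise of the haem oxygenase gene Hmox1 among them, and the probe sets were selected on mean level without regard to genotype. The differences and counts over the members are therefore descriptions, and an adjusted p places a gene in the fit over all 19938 genes.

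The samples were cultures of bone marrow stromal cells, the adherent marrow cells that hold precursors of osteoblasts and adipocytes, from C57BL/6 mice of 6 months. One group came from wild-type mice (WT) and the other from mice labelled 188KO, a knockout of the microRNA gene Mir188 (KO), with 3 biological replicates and 1 single-colour Affymetrix array per replicate in each group. Every culture of both groups was in adipogenic induction medium, α-MEM that held serum (10%), dexamethasone (1 µM), insulin (5 µg/ml) and IBMX, a phosphodiesterase inhibitor (0.5 mM). Cells outside this medium were not analysed here, so the values compare genotypes within adipogenic culture. The labels leave unsaid how the deletion was made, how long induction lasted and whether each replicate came from its own mouse. P-values thus set a difference against the spread between these cultures, with each gene's variance drawn towards that of all genes.

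NRF2, encoded by Nfe2l2, is a transcription factor that KEAP1 binds and passes on for degradation until oxidants or electrophiles modify KEAP1. It then pairs with small MAF proteins on antioxidant response elements, which BACH1 occupies as a repressor until haem releases it. The genes under these elements make and recycle glutathione, reduce thioredoxin and peroxiredoxins, break down haem and quinones, and supply NADPH, the reducing power of these systems. In fat cell precursors the pathway is known to bear on adipocyte differentiation.

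The microRNA gene named in the genotype gives these mature RNAs, shown with the seed (bases 2 to 8) in capitals because its loss defines the KO group (RefSeq, GRCm38.p6, minus strand of chromosome X).

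mmu-miR-188-5p: cAUCCCUUgcaugguggaggg

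mmu-miR-188-3p: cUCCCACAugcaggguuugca

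The Mir188 probe set read 7.22, 7.27 and 7.38 in WT and 7.22, 7.22 and 7.13 in KO, which overlap, with a difference of -0.10 (limma adjusted p = 0.348). The labels do not say whether it lies inside the deleted stretch, so it is no check of the genotype. Of the marker lists, 8 of 10 adipocyte genes and 10 of 11 marrow stromal genes lay above a background level of 6.83, the 95th percentile of olfactory receptor genes. Of the adipocyte markers 1 was higher in KO and 3 were lower, among them Pparg, the master regulator of fat cells, at -1.27. Adipoq, the adiponectin gene of mature fat cells, was below background in both groups, and so was the stromal marker Lepr. Of 15 macrophage markers 4 lay above background, and the mean level of the 15 was 6.56 to 6.64 in WT and 6.60 to 6.66 in KO. Adgre1, Csf1r, Itgam, Lyz2 and Cd163 were below background, and the lysosomal Cd68 was lower in KO by 0.19. Of 6 measured erythroid markers 3 lay above background and 0 passed by limma, also at an unadjusted p under 0.05. The globin genes Hbb-b1 and Hba-a1 were not measured. Of 7 endothelial markers 4 lay above background and 1, Kdr, was lower in KO by 0.29 (limma adjusted p = 0.0425). Of 8 neutrophil markers 2 lay above background and 0 passed, with 2 lower at an unadjusted p under 0.05. Of the stromal markers 2 were higher and 4 lower. The part that these marker differences have in the values of the members was not tested. In such bulk samples, fewer cells of a type and less RNA per cell cannot be told apart.

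Of the 40 members, 8 were higher and 2 lower in KO at a limma adjusted p under 0.05, and 30 did not pass. Over all genes tested 7.31% passed, 3.34% higher and 3.97% lower, and among genes above background 10.7% passed, a group that holds 39 of the 40 members. The higher ones were Nfe2l2 and Bach1, the glutamate-cysteine ligase genes Gclc and Gclm, the sulfiredoxin gene Srxn1, Hmox1, the quinone reductase gene Nqo1 and Osgin1. The lower ones were the glutathione peroxidase gene Gpx1 and the extracellular superoxide dismutase gene Sod3. The median difference of the members was 0.03 on the log2 scale, against 0.0046 over all genes. In 17 members every KO value lay above every WT value, and in 9 every KO value lay below, where 11.4% and 13.5% of all genes did so. In either direction that is 26 of 40 members, against 24.9% of all genes. Among genes above background the shares were 15% above, 19.3% below and 34.3% in either direction. Left out alone, WT replicate 3 brought the count of 8 to 1, KO replicate 3 to 4 and WT replicate 1 to 5. Of those 5, 4 were among the 8. Over all genes the 666 higher became 109, 302 and 274 in these fits. The count of 2 became 1 whichever array was left out.

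**Figure D1:**
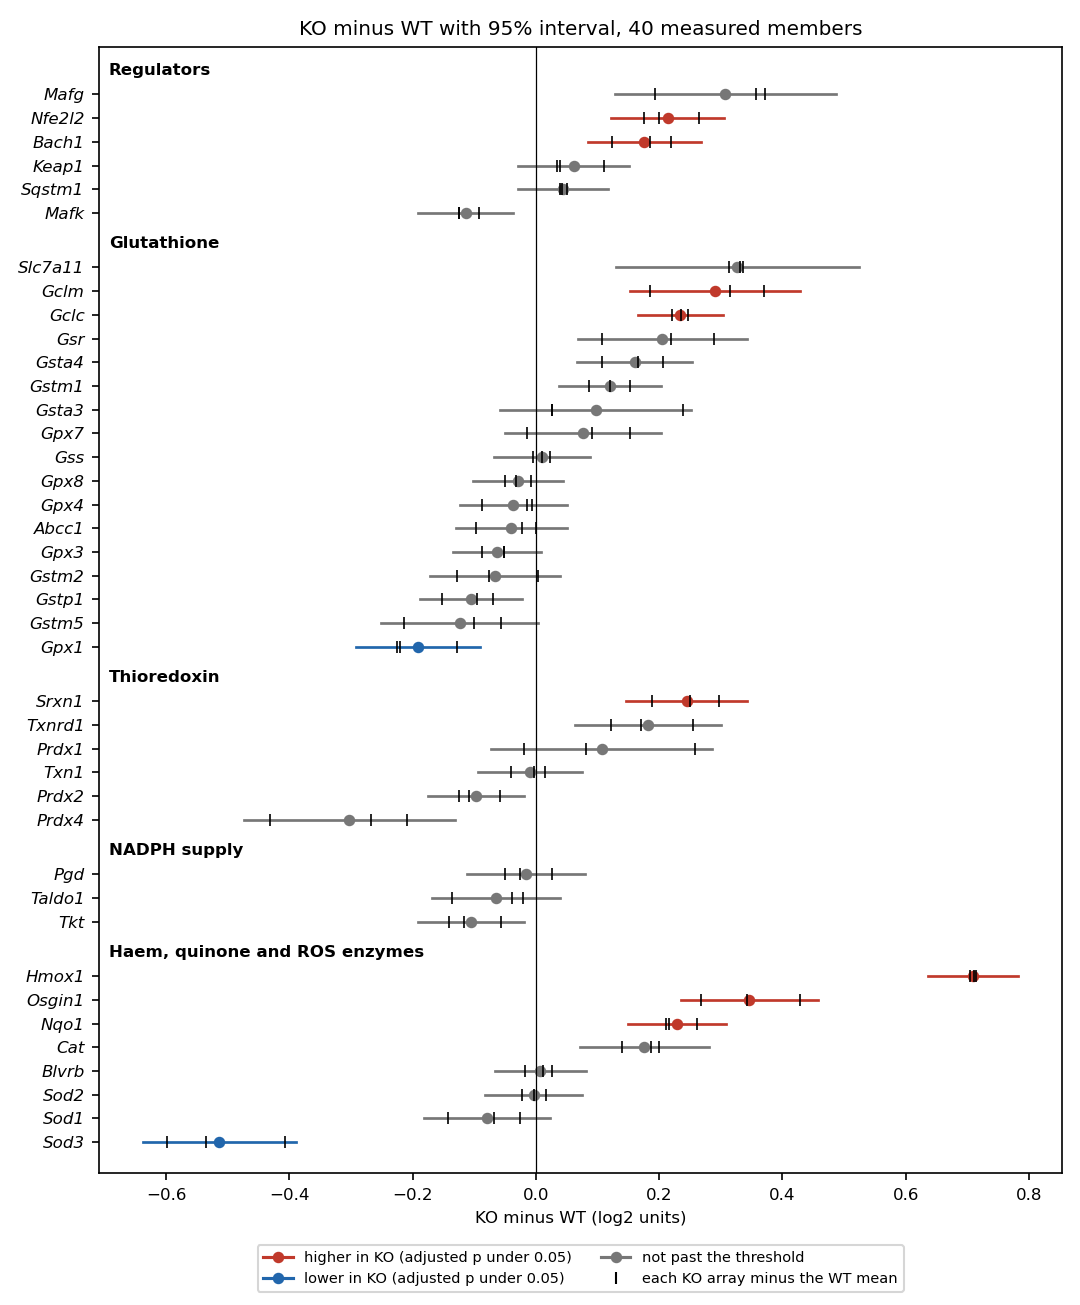
KO minus WT in log2 units for the 40 measured members by class, with the 95% interval of the fit (bars) and each KO array minus the WT mean (black ticks). Hmox1 stands far to the right at 0.71 and Sod3 to the left at -0.51, while Tkt is the lowest of the 3 NADPH supply genes at -0.11.

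The promoter windows of 35 of the 42 members, 250 bases before to 50 after a start (RefSeq, GRCm38.p6), were searched on both strands. Gclc, Gsr, Abcc1, Gsta4, Prdx6, Hmox1 and Sod3 were not matched. The core of the antioxidant response element, TGACNNNGC, occurred in 12 of the 35 members (34.3%) and in 13.99% of the 27025 genes in the table. It occurred in 12.39% of all windows of this length. Of the 6 higher members with a window, Nfe2l2, Gclm and Srxn1 held it, in Srxn1 after the start and in the others before it. Members that held it and did not pass lay on both sides of 0. Mafg (0.31), Txnrd1 (0.18), Prdx1 (0.11) and Gsta3 (0.10, below background) were above. Pgd (-0.02), Sod1 (-0.08), Mafk (-0.11) and Gstm5 (-0.12) were below. G6pdx, which was not measured, also held it. The AP-1 site TGACTCA, which also lies inside the element form TGACTCAGC, occurred in 5 members, against 5.95% of genes. The hypoxia element TACGTG occurred in 0 of the 35 members, against 3.67% of genes. A match describes letters, and binding was not measured.

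The stretches before the start of 4 higher members and of 2 members that did not pass are shown with the match in capitals. They let the higher genes be set beside others with the same letters, and both of these others differed by above 0. The stretches of Nfe2l2, Gclm and Txnrd1, the thioredoxin reductase gene, hold the core. Those of Osgin1 and Srxn1 hold the AP-1 site. In the Srxn1 stretch gc follows this site, and the letters TGAGTCAGC were not searched for. That of the peroxiredoxin gene Prdx1 holds TGACTCAGC, which 0.5% of genes carried. Except in Nfe2l2 and Osgin1 the match reads on the strand opposite to the gene. They lie at chr2:75704865-75704913 (minus strand), chr3:122245393-122245461, chr10:82859084-82859152, chr8:119437020-119437086, chr2:152105449-152105515 and chr4:116685436-116685504 (plus strand), in the order printed.

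Nfe2l2: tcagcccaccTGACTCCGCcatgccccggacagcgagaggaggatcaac

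Gclm: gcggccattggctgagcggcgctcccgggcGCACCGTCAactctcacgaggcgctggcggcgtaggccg

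Txnrd1: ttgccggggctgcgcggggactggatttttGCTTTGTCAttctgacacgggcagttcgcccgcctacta

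Osgin1: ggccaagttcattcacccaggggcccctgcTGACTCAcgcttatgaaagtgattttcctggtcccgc

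Srxn1: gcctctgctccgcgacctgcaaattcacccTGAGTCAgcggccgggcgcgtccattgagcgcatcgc

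Prdx1: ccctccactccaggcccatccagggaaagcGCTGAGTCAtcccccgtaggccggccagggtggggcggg

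Among the regulators, the activator and its repressor were both higher in KO. Nfe2l2 read 11.53, 11.50 and 11.47 in WT and 11.67, 11.76 and 11.70 in KO, so the groups did not overlap. It rose by 0.21 (SE 0.04, 95% interval 0.12 to 0.31, limma adjusted p = 0.0228), or 1.16-fold. Bach1, the repressor that competes for the same elements, read 9.59, 9.58 and 9.53 in WT and 9.75, 9.69 and 9.79 in KO. Its lowest KO value was thus above its highest WT value, and it rose by 0.18 (SE 0.04, adjusted p = 0.0422). Nfe2l2 passed without KO replicate 1 (adjusted p = 0.0463) and Bach1 without KO replicate 2 (adjusted p = 0.0491), and neither passed without any other array (adjusted p up to 0.115 and 0.174).

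The small MAF genes, whose products are partners of both NRF2 and BACH1, differed in sign and did not pass. Mafg read 8.88, 9.13 and 9.01 in WT and 9.38, 9.20 and 9.36 in KO. These groups did not overlap, but the WT arrays spread widely, and the difference of 0.31 had an interval of 0.13 to 0.49 (adjusted p = 0.0602). Mafk differed by -0.11 (interval -0.19 to -0.04, adjusted p = 0.0944), with every KO value below every WT value. Keap1, the adaptor that marks NRF2 for degradation, read 7.73, 7.67 and 7.73 in WT and 7.75, 7.74 and 7.82 in KO. The KO values were just above the WT values, by 0.06 (interval -0.03 to 0.15, adjusted p = 0.441). Sqstm1, the autophagy receptor p62 that can sequester KEAP1, differed by 0.04 (interval -0.03 to 0.12). The mean over the 6 regulators, relative to its WT mean, was 0.09 to 0.14 on the KO arrays and -0.01 to 0.01 on the WT arrays. For the haem, quinone and ROS enzymes the KO arrays held 0.08 to 0.14, and for the glutathione genes 0.05 to 0.06. The thioredoxin genes held -0.04 to 0.06 in KO, which overlaps the WT range of -0.03 to 0.03. The NADPH supply genes held -0.11 to -0.03 in KO, below the WT range of -0.02 to 0.04.

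Haem oxygenase had the largest difference of the members and ranked sixth by size among the 666 genes higher in KO. Hmox1, whose product opens haem to biliverdin, iron and carbon monoxide, read 10.67, 10.63 and 10.62 in WT and 11.35, 11.35 and 11.36 in KO. The groups lay far apart beside their SDs of 0.02 and 0.01 (n = 3 arrays each). It rose by 0.71 (SE 0.03, 95% interval 0.64 to 0.78, limma adjusted p = 0.000602), or 1.63-fold. Of the members it alone passed in all 13 alternative settings, with adjusted p up to 0.0320. Blvrb, a reductase of flavins and of some biliverdin isomers, differed by 0.01 (interval -0.07 to 0.08, adjusted p = 0.932).

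Nqo1, which reduces quinones fully in a single step and is a classic NRF2 target, read 8.85, 8.81 and 8.80 in WT and 9.04, 9.03 and 9.08 in KO. All 3 KO arrays were above the WT arrays, and it rose by 0.23 (SE 0.03, adjusted p = 0.0121). Osgin1, an oxidative stress induced growth inhibitor, read 8.28, 8.24 and 8.25 in WT and 8.68, 8.52 and 8.60 in KO. The KO arrays spread more than the WT arrays but stayed above them, and it rose by 0.35 (SE 0.05, adjusted p = 0.00978), or 1.27-fold. With WT replicate 3 left out neither passed (adjusted p = 0.0754 and 0.0673), and both passed without each of the others.

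Of the superoxide dismutase and catalase genes, 1 was lower in KO and 3 did not pass. Sod3, the secreted superoxide dismutase bound to the cell surface and matrix, read 10.84 on each of the 3 WT arrays and 10.44, 10.31 and 10.25 in KO. The equal WT values are a tie of the probe set summary, and their SD of 0.00 is no measure of precision. It fell by 0.51 (SE 0.05, 95% interval -0.64 to -0.39, adjusted p = 0.00445), or 1.43-fold, and passed without any 1 of the 6 arrays. The cytosolic dismutase gene Sod1 differed by -0.08 (interval -0.18 to 0.02) and the mitochondrial Sod2 by -0.0035 (interval -0.08 to 0.08). Catalase, Cat, which breaks down hydrogen peroxide in peroxisomes, read 11.50, 11.62 and 11.50 in WT and 11.74, 11.68 and 11.72 in KO. WT replicate 2 stood near the KO values, and the difference of 0.18 (interval 0.07 to 0.28) did not pass (adjusted p = 0.0644). It passed without that array (0.22, adjusted p = 0.0406), and with any other array left out it did not (adjusted p up to 0.233).

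Both subunits of glutamate-cysteine ligase, the rate-limiting step of glutathione synthesis, were higher in KO. The catalytic subunit Gclc read 11.65 on each WT array and 11.89, 11.87 and 11.90 in KO. WT replicates 2 and 3 held the same value, and the groups were well apart. It rose by 0.23 (SE 0.03, 95% interval 0.16 to 0.30, limma adjusted p = 0.00796), and did not pass with WT replicate 3 left out (adjusted p = 0.0570). The modifier subunit Gclm read 10.02, 9.94 and 10.06 in WT and 10.19, 10.38 and 10.32 in KO. KO replicate 1 was the nearest to WT, and the groups did not overlap. It rose by 0.29 (SE 0.06, adjusted p = 0.0330), and of the fits without 1 array it passed without KO replicate 1 (adjusted p = 0.0332) and in no other (adjusted p up to 0.117).

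Slc7a11, the transporter that brings in cystine for glutathione, read 7.96, 7.66 and 7.65 in WT and 8.09, 8.07 and 8.09 in KO. The KO arrays were tight and WT replicate 1 stood apart from the other WT arrays. The difference of 0.33 (interval 0.13 to 0.52) did not pass (adjusted p = 0.0667), and was 0.43 and past the threshold without WT replicate 1 (adjusted p = 0.0174). With any other array left out Slc7a11 did not pass (adjusted p up to 0.230). Gss, glutathione synthetase, which completes the tripeptide, differed by 0.01 (interval -0.07 to 0.09, adjusted p = 0.910). Gsr, the reductase that returns oxidised glutathione at the cost of NADPH, read 9.39, 9.28 and 9.40 in WT and 9.65, 9.47 and 9.58 in KO. Its groups did not overlap, and the difference of 0.20 (interval 0.07 to 0.34) did not pass (adjusted p = 0.0909). Abcc1, an exporter of glutathione conjugates, differed by -0.04 (interval -0.13 to 0.05).

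The glutathione transferases, which conjugate glutathione to electrophiles, lay on both sides of 0 and none of the 6 passed (limma adjusted p = 0.0596 to 0.481). At an unadjusted p under 0.05, Gsta4 and Gstm1 were above 0 and Gstp1 below. Gsta4, which detoxifies lipid peroxidation aldehydes, read 9.90, 9.84 and 9.84 in WT and 9.97, 10.03 and 10.07 in KO. The groups did not overlap, with a difference of 0.16 (interval 0.07 to 0.25, adjusted p = 0.0596). Gstm1 differed by 0.12, Gstm2 by -0.07, Gstm5 by -0.12 and Gstp1 by -0.11. In a pair of further probe sets that Gstp1 shares with its near copy Gstp2, the differences were -0.13 and -0.15. Gsta3 lay below background in both groups.

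Of the 5 glutathione peroxidase genes, 1 was lower in KO and none higher. Gpx1, the abundant cytosolic peroxidase, read 11.49, 11.41 and 11.46 in WT and 11.23, 11.23 and 11.33 in KO. The groups did not overlap, and it fell by 0.19 (SE 0.04, 95% interval -0.29 to -0.09, limma adjusted p = 0.0437). This call was lost without any 1 of the 6 arrays (adjusted p = 0.0564 to 0.171), after quantile normalization again (adjusted p = 0.0863) and after cyclic loess (adjusted p = 0.0579). Gpx3, the secreted form, differed by -0.06, and Gpx4, which reduces lipid peroxides in membranes, by -0.04. The endoplasmic reticulum forms Gpx7 and Gpx8 differed by 0.08 and -0.03, and the intervals of these 4 genes all held 0. At an unadjusted p under 0.05, 0 of the 5 were above 0.

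**Figure D2:**
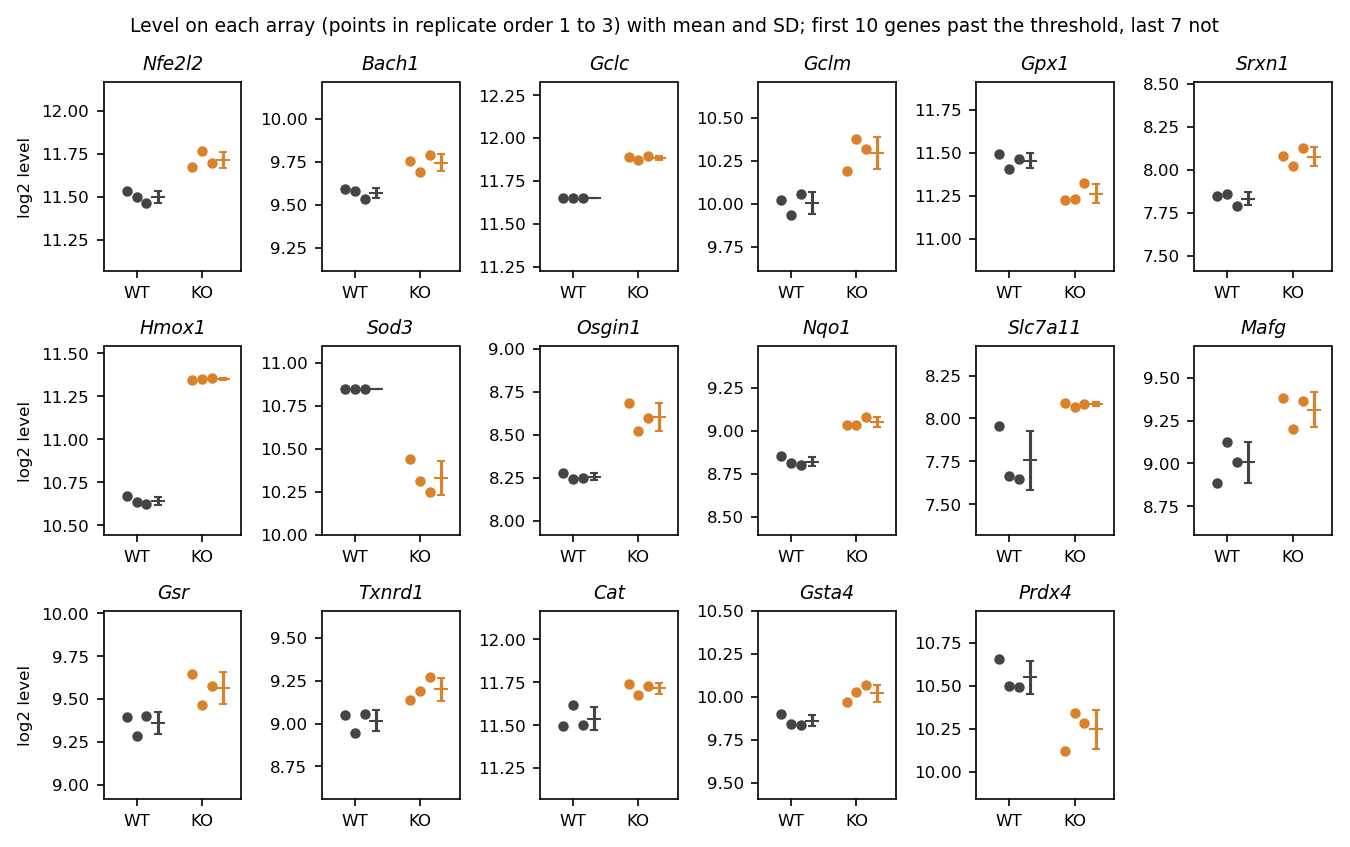
Log2 level on each of the 3 WT and 3 KO arrays for the 10 members past the threshold and the 7 others that differed by over 0.15, with the mean and SD beside the points and a common height of scale. The KO points lie wholly above the WT points for Hmox1 and wholly below for Sod3, and WT replicate 1 of Slc7a11 and WT replicate 2 of Cat stand towards the KO points.

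In the thioredoxin system, the enzyme that repairs overoxidised peroxiredoxins was higher in KO while the peroxiredoxins differed in sign. Srxn1, sulfiredoxin, read 7.85, 7.86 and 7.79 in WT and 8.08, 8.02 and 8.13 in KO. The groups did not overlap, and it rose by 0.24 (SE 0.04, 95% interval 0.15 to 0.34, limma adjusted p = 0.0183), or 1.19-fold. It passed with replicate 2 of either group left out, and with replicate 1 or 3 of either group left out it did not (adjusted p up to 0.0946). Txnrd1, which reduces thioredoxin with NADPH, read 9.05, 8.95 and 9.06 in WT and 9.14, 9.19 and 9.27 in KO. All KO values were above the WT values, and the difference of 0.18 (interval 0.06 to 0.30) did not pass (adjusted p = 0.0831). Thioredoxin itself, Txn1, differed by -0.01 (interval -0.09 to 0.08, adjusted p = 0.918).

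Prdx4, the peroxiredoxin of the endoplasmic reticulum, read 10.66, 10.50 and 10.49 in WT and 10.12, 10.34 and 10.28 in KO. Every KO value lay below every WT value, and the difference of -0.30 (interval -0.47 to -0.13) just missed the threshold (adjusted p = 0.0551). It passed in 4 of 13 alternative settings, among them quantile normalization again (-0.27, adjusted p = 0.0470). It did not pass after cyclic loess or with any 1 array left out (adjusted p = 0.0822 to 0.163). Prdx1 differed by 0.11 (interval -0.07 to 0.29) and Prdx2, both cytosolic peroxidases, by -0.10 (interval -0.18 to -0.02), neither past the threshold. Each of these 2 genes had a second, dimmer probe set, with differences of 0.03 and -0.18. The size of the difference thus depended on the probe set.

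The NADPH supply genes among the members encode enzymes of the pentose phosphate route, which makes NADPH from glucose. Of the 3 measured members, 0 passed by limma, and at an unadjusted p under 0.05 transketolase was lower. Pgd, phosphogluconate dehydrogenase, which releases NADPH directly, read 11.01, 10.92 and 10.93 in WT and 10.93, 10.90 and 10.98 in KO. These overlap, with a difference of -0.02 (interval -0.11 to 0.08, adjusted p = 0.869). It was above 0 after quantile normalization again (0.03), after cyclic loess (0.02) and with array weights (0.01). Transaldolase, Taldo1, differed by -0.07 (interval -0.17 to 0.04, adjusted p = 0.476) and transketolase, Tkt, by -0.11 (interval -0.19 to -0.02, adjusted p = 0.156).

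Other genes of the same systems, listed apart from the members, had calls in both directions. Of 113 measured genes 10 were higher and 12 lower in KO (19.5%, against 7.31% of all genes), with a median difference of -0.0083. Among genes above background, a group that holds 100 of the 113, 10.7% passed. By list the share ran from 9.52% (detoxification genes) to 33.3% (enzymes that produce reactive oxygen). Of 8 further CNC, small MAF and KEAP1 partner genes, Maff, the third small MAF gene, rose and the others did not pass. That 1 call is 12.5% of the list. Maff read 8.74, 8.85 and 8.73 in WT and 9.33, 9.30 and 9.16 in KO. The groups were apart, by 0.49 (SE 0.06, limma adjusted p = 0.00708), or 1.40-fold, and it did not pass with WT replicate 3 left out (adjusted p = 0.0541).

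Of 20 further NADPH supply genes, 2 were higher and 3 lower (25% in all). The list holds other genes of the pentose phosphate route, of which Pgls, Rpe and Rpia did not pass, at -0.07, -0.08 and -0.07. Idh1, the cytosolic isocitrate dehydrogenase, rose by 0.28 (adjusted p = 0.00809), and H6pd, which carries out the first steps of the pentose phosphate route inside the endoplasmic reticulum, by 0.26 (adjusted p = 0.00891). Malic enzyme, Me1, a cytosolic source and NRF2 target, fell by 0.30 (adjusted p = 0.00720). Nnt, the mitochondrial transhydrogenase, fell by 0.25 (adjusted p = 0.0162) and the mitochondrial folate enzyme gene Aldh1l2 by 0.15 (adjusted p = 0.0385). With WT replicate 3 left out Idh1, H6pd and Me1 did not pass (adjusted p = 0.0574, 0.0612 and 0.0537). Nnt was lost with WT replicates 1 or 3 or the third KO replicate left out, and Aldh1l2 with any 1 array left out (adjusted p up to 0.0907 and 0.143).

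Of 17 further thioredoxin and glutaredoxin genes, 1 was higher and 4 lower (29.4% in all). Sesn2, a stress-induced sestrin, rose by 0.34 (adjusted p = 0.00536) and passed without any 1 array. The cytosolic Txndc17 fell by 0.18 (adjusted p = 0.0176), and the mitochondrial glutaredoxin Glrx5 by 0.19 (adjusted p = 0.0228) and thioredoxin Txn2 by 0.16 (adjusted p = 0.0241). The mitochondrial peroxiredoxin Prdx3, the 1 other gene lower here and named after its value was seen, fell by 0.17 (adjusted p = 0.0453). The count of 4 was 1 after quantile normalization again and 2 after cyclic loess. It was 1 with replicate 2 of either group left out, 2 with KO replicate 1 left out and 0 by limma with any other array left out. With all arrays 2 of the list were higher and 6 lower at an unadjusted p under 0.05.

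Of 32 further glutathione genes 1 was higher and 3 lower (12.5% in all, against 7.31% of all genes and 10.7% of those above background). The membrane-bound transferase gene Mgst3 fell by 0.37 (adjusted p = 0.00386) and passed without any 1 array. The glyoxalase genes Glo1 and Hagh, which clear methylglyoxal with glutathione as cofactor, fell by 0.30 (adjusted p = 0.0209) and 0.22 (adjusted p = 0.0309). Chac2, which degrades glutathione, rose by 0.28 (adjusted p = 0.0417), though its level lay below background. Glo1, Hagh and Chac2 passed in 2, 1 and 1 of the 6 fits without 1 array.

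Of 21 further detoxification genes of the NRF2 response 2 were higher (9.52%, against 7.31% of all genes and 10.7% of those above background). They were the aldehyde dehydrogenase genes Aldh3a1, by 0.41 (limma adjusted p = 0.0124), and Aldh9a1, by 0.17 (adjusted p = 0.0488). None was lower, and at an unadjusted p under 0.05 4 were higher and 1 lower. Of 15 enzymes that produce reactive oxygen, 3 were higher and 2 lower (33.3% in all). The oxidase of protein folding Ero1a rose by 0.27 (adjusted p = 0.00702), spermine oxidase Smox by 0.23 (adjusted p = 0.0145) and aldehyde oxidase Aox1 by 0.26 (adjusted p = 0.0497). Monoamine oxidase Maoa fell by 0.28 (adjusted p = 0.0139) and Cyba, the common membrane subunit of NADPH oxidases, by 0.24 (adjusted p = 0.0258). Ero1a did not pass with WT replicate 3 left out (adjusted p = 0.0537). Aldh3a1, Smox and Maoa each passed in 3 of the 6 fits without 1 array, Aox1 in 1, and Aldh9a1 and Cyba in 0.

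**Figure D3:**
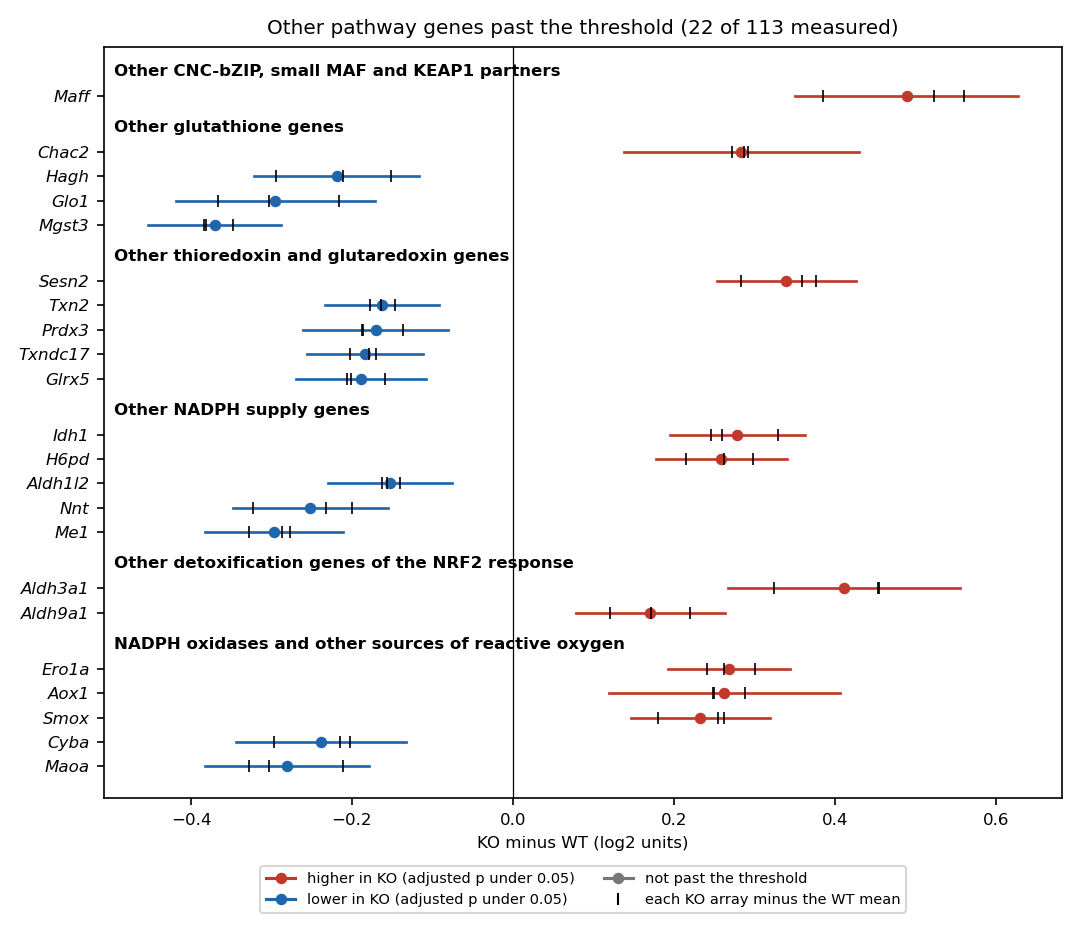
KO minus WT in log2 units, with 95% intervals and each KO array minus the WT mean, for the 22 of 113 other measured genes of these systems past the threshold. The 10 genes to the right run up to Maff at 0.49 and the 12 to the left down to Mgst3 at -0.37.

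**Figure D4:**
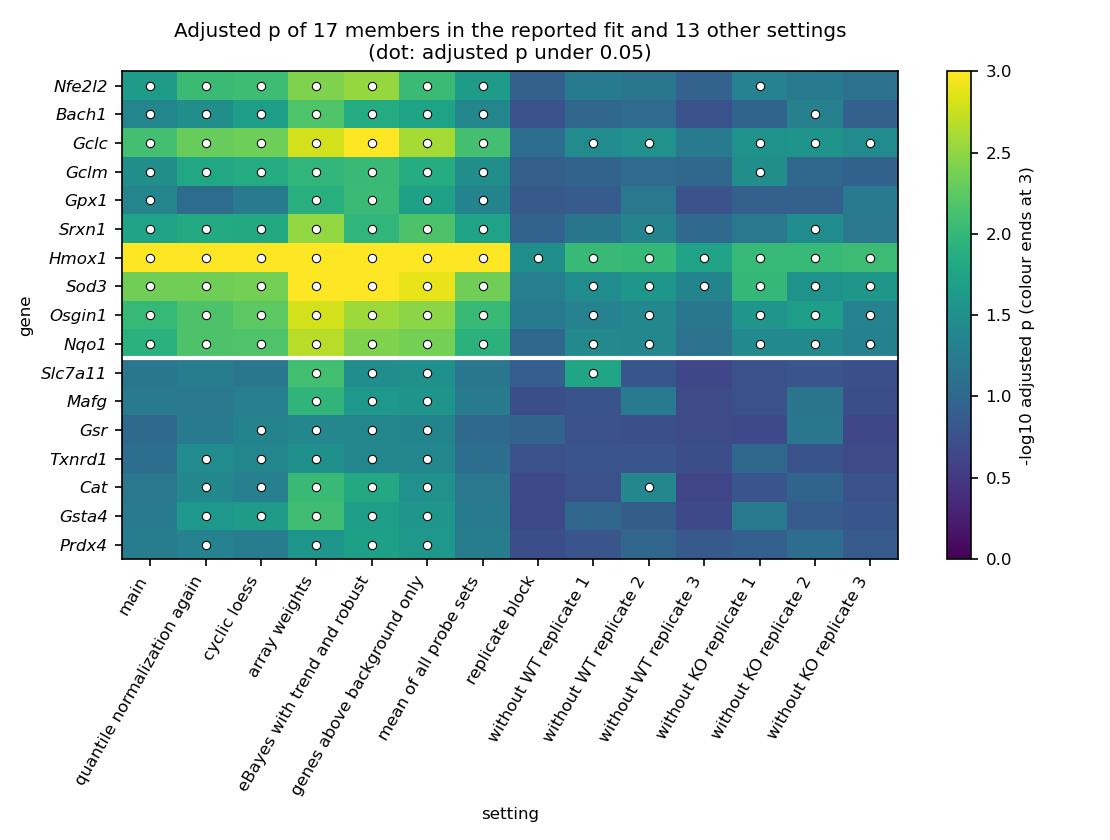
Adjusted p of 17 members (down the side) in the fit as reported and the 13 other settings (columns), as -log10 in colour, with a dot where it is under 0.05 and a white line between the 10 called and the 7 other members. Hmox1 has a dot in every column, and the column without WT replicate 3 has dots for Hmox1 and Sod3.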

How the data were processed

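The deposited table holds log2 expression values of 6 arrays that the authors made with RMA. Partek and Affymetrix Expression Console are also named, per the submitters' processing notes. RMA corrects background, equalises array distributions and summarises probe sets. Array medians were 7.19 to 7.23. It therefore hides a shift common to the whole transcriptome, and levels of different probe sets are not comparable. Of 35556 probe sets, 21789 carried 1 gene symbol in the platform annotation, 1621 several and 12146 none. Symbols were updated through the GRCm38.p6 gene table. With 3 arrays per group the number of arrays limits the precision, and arrays give no read depth.

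KO was compared with WT by limma 3.58.1 (lmFit and eBayes, R 4.3.3), two-sided and without covariates, with Benjamini-Hochberg adjustment over 19938 genes and a threshold of 0.05. The fit was tested on simulated data. Alternatives were 2 rescalings, array weights, another variance model, a background filter, averaged probe sets, a replicate block and each array left out. Members past the threshold, those over 0.15 in size and the main regulators are given by array. Up to 3 genes per direction of each further list are named. The members and lists were chosen with earlier results of these data known.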

Additional observations from a re-analysis of the deposited data

How the results depend on the processing

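The deviations of same-numbered WT and KO arrays from their group means correlated at -0.299, -0.262 and -0.015. Such deviations cancel within each group, so these values cannot settle whether replicate numbers pair the arrays. The labels leave that unsaid. With the replicate block, 52 of all genes passed (30 higher, 22 lower) and 1 member was higher, Hmox1, and 0 lower, where 15 members were higher and 4 lower at an unadjusted p under 0.05 (limma). With array weights 3418 genes passed (1604 higher, 1814 lower), with the other variance model 2275 (1305 lower) and with the background filter 2192 (1227 lower). Members higher and lower were then 14 and 7, 15 and 5, and 15 and 4. WT replicate 3 had an array weight of 7.41 and the others 0.524 to 1.19. After cyclic loess 13 members were higher and 1 lower, and after quantile normalization again 12 and 2. These rescalings gave 859 higher and 667 lower, and 862 higher and 639 lower, over all genes, against 666 and 791. Leaving out 1 array gave 189 to 932 genes (109 to 434 higher, 80 to 524 lower), 1 to 6 members higher and 1 lower.

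Of 130 values of the 10 called members under the alternatives, 91 stayed past the threshold, 39 did not and 0 changed sign. Of 389 values of the others, 42 passed and 23, of 8 genes, changed sign. After quantile normalization again and cyclic loess these were Gpx4 (0.016 and 0.0013), Gpx8 (0.0043 and 0.011), Txn1 (0.0013 and 0.033), Pgd (0.031 and 0.021) and Sod2 (0.038 and 0.034), with Abcc1 (0.0052) after the former. With array weights Pgd was 0.015 and Sod2 0.030. With 1 array left out, the difference ran from -0.0070 to 0.026 for Gss, -0.032 to 0.0057 for Txn1, -0.038 to 0.012 for Pgd, -0.0026 to 0.019 for Blvrb and -0.021 to 0.0094 for Sod2. The cause of these shifts was not tested.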

Other observations

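The genes given here beside Hmox1 are some of those that handle haem, iron and metals. They were named after their values were seen, and they did not pass the test. The constitutive haem oxygenase gene Hmox2 read 10.43, 10.36 and 10.41 in WT and 10.42, 10.59 and 10.52 in KO, which overlap, with a difference of 0.11 (limma adjusted p = 0.268). Blvra, whose product reduces the biliverdin that haem oxygenase makes, differed by 0.03 (adjusted p = 0.783). The ferritin genes Fth1 and Ftl1, whose products store the iron that haem breakdown frees, showed differences of -0.0092 and 0.02 (adjusted p = 0.939 and 0.853). The metallothionein genes Mt1 and Mt2 were at 0.08 and 0.12 (adjusted p = 0.181 and 0.125), with every KO value above every WT value in both. Before adjustment their limma p-values were 0.0305 and 0.0168.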
